A study of Homo sapiens with 4 samples.

Results

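The 51 genes described here build and police the connection between chromosomes and the mitotic spindle. They are the rows of the count files whose symbol is CENP followed by 1 letter from A to X (21 genes), plus 30 named genes of the outer kinetochore, the spindle checkpoint, the chromosomal passenger complex, the mitotic kinases and the exit from mitosis, out of 60623 genes in all. The rule uses symbols and names and no measured value, but the set was chosen with earlier results of these data known. Of the 51, 50 had enough counts to be tested. The exception was PRC1, with 24, 12, 7 and 3 counts in shControl 1, shControl 2, shYEATS2 1 and shYEATS2 2.

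The study silenced YEATS2, a reader of histone acetylation and crotonylation, in the cell line BICR10, which derives from a human head and neck tumour. Cells of both groups were transduced with lentivirus, carrying a control hairpin (shControl) or a hairpin against YEATS2 (shYEATS2), and were selected with puromycin for 3 days, so the viral vector and the drug are shared by control and knockdown. RNA was taken from 2 libraries per group. The study states in general that its experiments used independent biological replicates. The labels do not say which YEATS2 hairpin each library carried or whether these libraries came from separate cultures, so the p-values below measure the spread between these libraries, which may be technical. YEATS2 itself stood at 66.1 and 66.7 CPM (counts relative to the scaled library total) in the shControl libraries and at 29.2 and 29.1 CPM in the shYEATS2 libraries, or 43.9% of the control level by the fitted change.

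At each centromere a specialised nucleosome that holds CENPA, a variant of histone H3, anchors a network of constitutive proteins, and this network recruits the outer kinetochore, which grips microtubules. Kinases and checkpoint proteins monitor the attachment and hold back anaphase until all chromosomes are attached. Transcripts of many of these genes build up in G2 phase and mitosis, under control of the MuvB complex, B-MYB and FOXM1, and rapidly dividing tumour cells generally carry much of them.

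Depth and markers of cell type differed between the groups as follows. Counts on genes came to between 11334133 and 47297970 per library, and both shYEATS2 libraries were shallower than both shControl libraries. Of 9 epithelial markers (KRT5, KRT14, KRT6A, KRT17, TP63, KRT8, KRT18, EPCAM and CDH1), 6 were lower and 1 was higher in shYEATS2, and 2 were not tested. By the test and threshold given below, 23.6% of all tested genes were lower and 22.6% higher. The summed level of the 9 markers was 451 to 453 CPM in shControl and 194 to 207 CPM in shYEATS2. Most of the sum was KRT8, which is not specific to squamous epithelium, at 269 and 264 CPM in shControl and 123 and 115 CPM in shYEATS2. The squamous regulator TP63 was at 0.255 CPM or less in every library of this line, which is labelled as head and neck cancer. KRT14 was at 1.24 CPM or less and KRT17 at 0.397 CPM or less. Other squamous keratins were present in shControl, with KRT6A at 55 and 58.2 CPM and KRT5 at 16.42 and 14.95 CPM. In shYEATS2 KRT6A was at 1.38 and 2.21 CPM and KRT5 at 1.03 and 1.36 CPM. The higher marker was CDH1, at 0.353 and 0.318 CPM in shControl and 2.84 and 2.12 CPM in shYEATS2. All 5 fibroblast markers (COL1A1, COL3A1, PDGFRB, DCN and LUM) were lower, with a sum of 4586 to 4664 CPM in shControl and 1415 to 1502 CPM in shYEATS2. The 3 endothelial markers summed to at most 2.21 CPM, and the 4 leukocyte markers to at most 0.255 CPM, with CD3E and CD68 at 0 counts in all 4 libraries. The part of cell identity in the results below was not tested.

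The genes of mitosis were mostly higher after YEATS2 knockdown. The study had already reported the gene set G2M CHECKPOINT as enriched in the genes it found upregulated. By edgeR's quasi-likelihood test with an adjusted p under 0.05, called from here on, 30 of the 50 tested members were higher in shYEATS2 and 5 were lower, while 15 did not pass. Among all 17058 tested genes 22.6% were higher and 23.6% were lower, against 60.0% and 10% of the members. The median log2 fold change was 0.30 over the members, a rise of 23.3%, and −0.01 over all tested genes. The changes were moderate. None of the members rose by 2-fold or more, and 1, the weakly expressed CENPS, fell by more than 2-fold. Scaled by library totals alone, 33 members were higher and 1 was lower, with all tested genes shifted to a median of 0.13 on the log2 scale. In a bulk sample, more cells in mitosis and more RNA per cell cannot be told apart.

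The same picture stood in the single libraries. The normalised levels of all tested members summed to 3393 and 3461 CPM in the shControl libraries and to 4289 and 4372 CPM in the shYEATS2 libraries. Both shYEATS2 libraries lay above both shControl libraries for 32 members (35.3% of all tested genes did so) and below both for 13 (36.3% of all tested genes), and they overlapped for 5. The median log2 ratio of the members ranged from 0.27 to 0.31 over the 4 pairs of a shYEATS2 and a shControl library. With all libraries thinned to the depth of the shallowest, 29 members were higher and 4 lower.

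**Figure D1:**
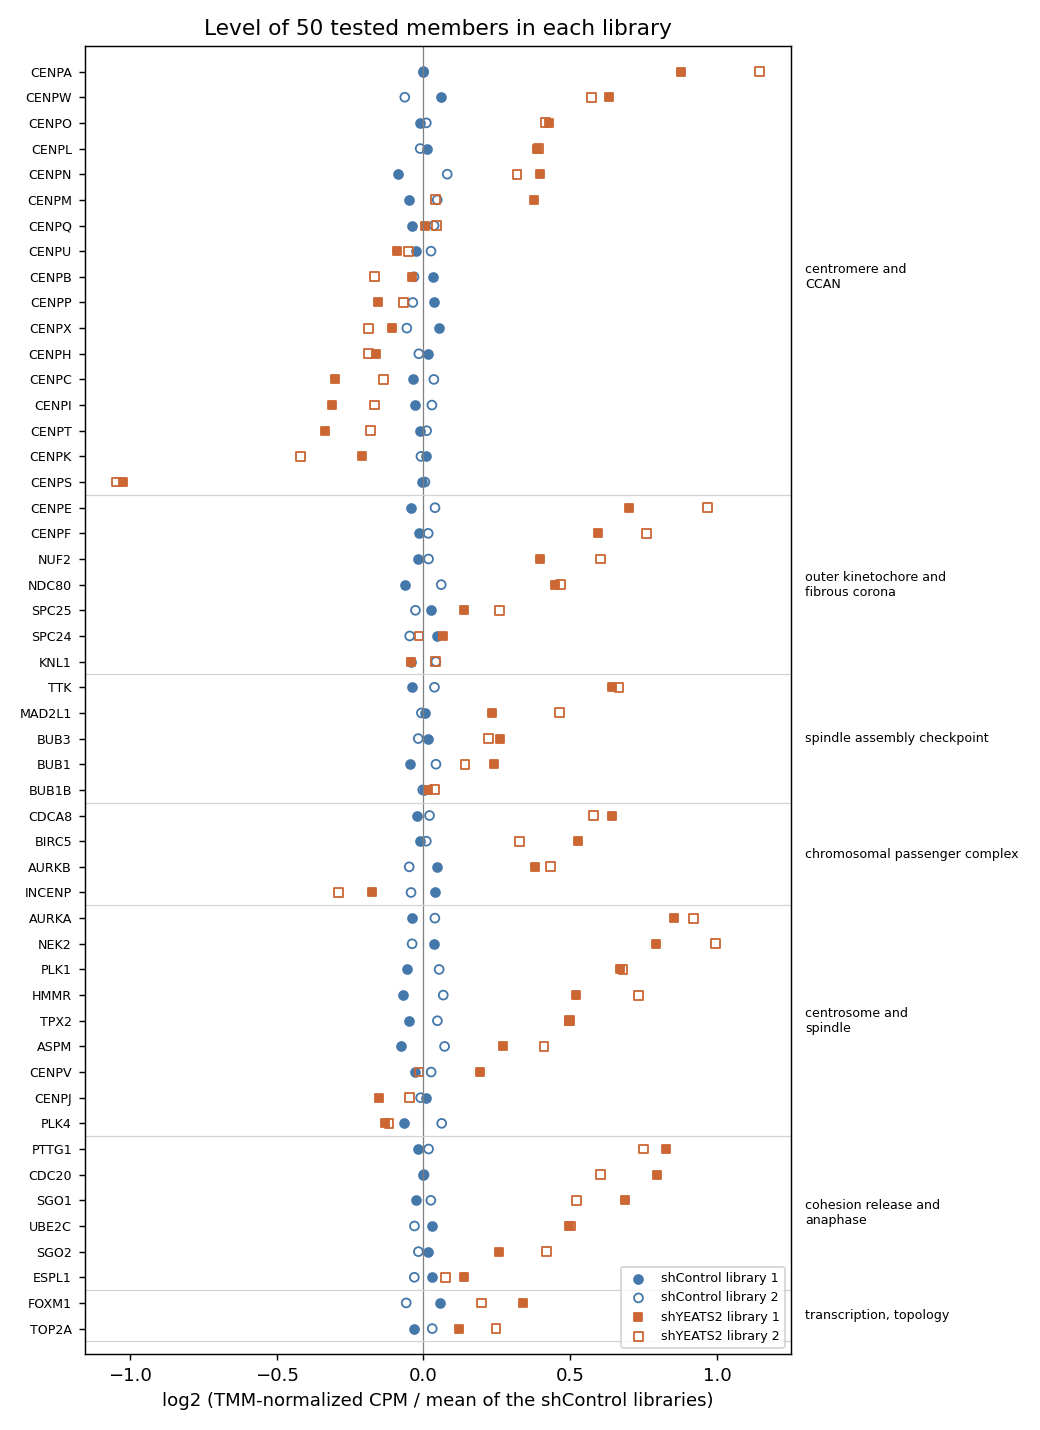
Each row is a tested member and each point a library, placed by its normalised CPM relative to the mean of the shControl libraries on a log2 axis (circles shControl, squares shYEATS2, filled symbols library 1 and open symbols library 2). The squares lie right of the circles in 32 rows, most of them outside the centromere group at the top, and left of them in 13.

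The roles differed in their counts. In the 17 genes of centromeric chromatin and the constitutive centromere-associated network, 6 were higher (35.3%) and 4 were lower (23.5%), with a median log2 fold change of −0.10. In the 33 tested members of the other roles, 24 were higher (72.7%) and 1 was lower (3.03%), with a median of 0.40. Among all tested genes 22.6% were higher and 23.6% lower. The difference between these groups was not tested.

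Promoter sequences of the 5 members with an entry, a mean of 10 CPM or more and the largest called rises are printed here because genes of late cell cycle phases often carry the cell cycle genes homology region (CHR, TTTGAA or TTCGAA), a binding element of the MuvB complex, and the CCAAT box bound by NF-Y. RefSeq entries (GRCh38.p14) matched 39 of the 51 members by symbol, and the most upstream start was used where a gene had several. No entry matched AURKA, BIRC5, BUB3, CENPH, CENPJ, CENPL, CENPM, FOXM1, KNL1, TPX2, TTK or UBE2C. The 250 bases before the annotated start follow, 5′ to 3′ in the direction of transcription, with matches to either motif on either strand in capitals. CENPK, the member with the largest called fall at that level, comes last for comparison.
CENPA (chr2:26785806-26786055, plus strand): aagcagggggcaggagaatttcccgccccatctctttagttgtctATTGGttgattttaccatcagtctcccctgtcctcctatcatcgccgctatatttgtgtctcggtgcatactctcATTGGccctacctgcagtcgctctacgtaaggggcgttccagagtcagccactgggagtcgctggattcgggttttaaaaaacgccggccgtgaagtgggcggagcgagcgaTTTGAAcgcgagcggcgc
NEK2 (chr1:211675622-211675871, minus strand): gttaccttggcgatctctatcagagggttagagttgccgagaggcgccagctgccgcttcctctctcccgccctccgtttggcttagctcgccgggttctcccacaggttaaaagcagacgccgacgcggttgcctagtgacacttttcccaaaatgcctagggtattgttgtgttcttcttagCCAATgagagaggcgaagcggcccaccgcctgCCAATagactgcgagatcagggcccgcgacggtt
CENPE (chr4:103198344-103198593, minus strand): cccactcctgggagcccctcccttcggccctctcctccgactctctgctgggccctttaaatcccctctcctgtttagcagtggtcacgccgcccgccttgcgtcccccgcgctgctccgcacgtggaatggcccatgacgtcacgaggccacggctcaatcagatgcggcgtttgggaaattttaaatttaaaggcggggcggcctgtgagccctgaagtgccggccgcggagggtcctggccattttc
PTTG1 (chr5:160421605-160421854, plus strand): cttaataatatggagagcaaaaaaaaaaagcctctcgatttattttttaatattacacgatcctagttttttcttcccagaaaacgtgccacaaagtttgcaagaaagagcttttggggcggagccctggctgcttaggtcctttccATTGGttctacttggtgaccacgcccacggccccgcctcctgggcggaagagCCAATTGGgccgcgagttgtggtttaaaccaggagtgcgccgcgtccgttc
CDC20 (chr1:43358731-43358980, plus strand): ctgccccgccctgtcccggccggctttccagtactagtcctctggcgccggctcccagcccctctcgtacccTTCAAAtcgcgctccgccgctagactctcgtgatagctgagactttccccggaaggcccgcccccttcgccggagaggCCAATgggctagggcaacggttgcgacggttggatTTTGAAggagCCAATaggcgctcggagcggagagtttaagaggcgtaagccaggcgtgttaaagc
CENPK (chr5:65563169-65563418, minus strand): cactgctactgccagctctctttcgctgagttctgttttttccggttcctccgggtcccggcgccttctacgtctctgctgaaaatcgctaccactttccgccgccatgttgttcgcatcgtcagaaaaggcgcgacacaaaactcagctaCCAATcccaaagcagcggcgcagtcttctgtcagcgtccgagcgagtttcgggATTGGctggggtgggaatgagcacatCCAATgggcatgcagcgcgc

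CENPA had a CHR match whose first base lay 18 bases before the start, below a pair of CCAAT boxes. In CDC20 a CHR match at 65 bases before the start was followed by a CCAAT box at 55. NEK2 and PTTG1 had CCAAT boxes and no CHR match, and in PTTG1 a pair of them on opposite strands overlapped, at 51 and 48 bases before the start. CENPE had neither motif in this window although its transcript was among the 4 largest rises. CENPK had 3 CCAAT boxes and no CHR match.

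Motifs were counted from 250 bases before to 50 bases after the start, for members with a promoter entry only. Among these, CHR letters were found in 16 of 21 called higher, 5 of 12 that did not pass and 1 of 5 called lower. The shares were 76.2%, 41.7% and 20.0%, beside 16.7% of all 27305 promoters of the table and 11.2% of the promoters of other tested genes. CCAAT letters stood in 17 of the 21 promoters of higher members (81.0%) and in 35.7% of all promoters. They also stood in 7 of the 12 members that did not pass (58.3%) and 2 of the 5 called lower (40%). Both motifs were found together in 61.9% of these higher members and in 6.63% of all promoters. For members that did not pass the share was 25%, and for those called lower 20%. Tested members with a CHR match had a median log2 fold change of 0.39 (22 genes), and those without one −0.02 (16 genes). Split by both motifs together, the median was 0.36 for members with both (17 genes) and 0.03 for the others (21 genes). Among tested genes that are no member, 28.9% of the 529 with both motifs were higher, and 23.8% of the 10431 others. Called lower were 26.1% and 27.5%, and the median log2 fold changes were close, −0.01 and −0.02. The 529 include 20 of the other G2/M genes listed further below. These differences were not tested. A match to these letters is a description of the sequence and does not show a bound site.

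The centromere group held the largest rise of all members and 4 of the 5 falls. Its share of lower genes, 23.5%, was close to the 23.6% of all tested genes. Its share of higher genes was 35.3%, beside 22.6% of all tested genes. CENPA (ENSG00000115163, chromosome 2 of GRCh38 from 26764289 to 26801067, plus strand) was at 10.4 and 10.4 CPM in the shControl libraries and at 19.0 and 22.9 CPM in the shYEATS2 libraries. The groups did not overlap, and CENPA changed by 0.99 ± 0.11 on the log2 scale (fit and standard error, adjusted p = 6.7e-12, edgeR). The exons of CENPA share 7.08% of their length with the neighbouring gene SLC35F6 on the same strand.

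CENPW, which forms a histone-fold complex with CENPT at the inner kinetochore, went from 24.9 and 22.8 CPM to 37.0 and 35.5 CPM, a log2 fold change of 0.61 ± 0.09 (standard error). Its partner CENPT moved the other way, from 21.5 and 21.8 CPM to 17.2 and 19.1 CPM, a log2 fold change of −0.27 ± 0.10. Levels of CENPW thus rose in both shYEATS2 libraries while those of CENPT fell in both.
CENPO, a subunit of the subcomplex that also holds CENPP, CENPQ and CENPU, was at 30.4 and 30.8 CPM in shControl and at 41.1 and 40.8 CPM in shYEATS2, a change of 0.42 ± 0.08 on the log2 scale (standard error). These 3 partners did not pass the test. Their log2 fold changes were −0.12 (CENPP), 0.02 (CENPQ) and −0.07 (CENPU), within 2 standard errors of 0. A further subunit, CENP-R, encoded by ITGB3BP and outside the member rule, was lower, from 44.4 and 46.2 CPM to 35.9 and 40.7 CPM (log2 fold change −0.26 ± 0.08, adjusted p = 0.0063, edgeR).

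CENPL and CENPN bind each other, and CENPN reads the CENPA nucleosome. CENPL was at 22.7 and 22.4 CPM in shControl and at 29.5 and 29.6 CPM in shYEATS2, with a log2 fold change of 0.39 ± 0.09 (standard error). CENPN rose by a log2 fold change of 0.36 ± 0.07. Other genes overlap the exons of CENPN on both strands. Genes on the opposite strand also overlap exons of CENPO (27.0% of its exonic length with ADCY3), CENPP (39.9% with IPPK), FOXM1, SGO1, CENPU, PLK1, CENPT and several more. Since the strand setting of the counting is not given, reads from such partners cannot be told apart.

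CENPH, CENPI, CENPK and CENPM form a further subcomplex of the network. CENPK fell from 25 and 24.7 CPM to 21.5 and 18.6 CPM, and CENPI from 50.3 and 52.4 CPM to 41.4 and 45.7 CPM. The log2 fold changes were −0.29 ± 0.10 and −0.25 ± 0.08 (standard error), with adjusted p-values of 0.0095 and 0.0056 by edgeR. CENPH had a log2 fold change of −0.17 and did not pass (adjusted p = 0.087, edgeR), although its libraries did not overlap between the groups. CENPM, at 15.5, 16.5, 20.8 and 16.5 CPM in the order of the libraries, was called higher with an adjusted p of 0.045 by edgeR, but shYEATS2 2 lay within the range of the shControl libraries, and without shYEATS2 1 its log2 fold change was 0.03 and not called.

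Of the remaining genes of the group, CENPS was called lower and the others did not pass the test. CENPC, the scaffold that links the CENPA nucleosome to the outer kinetochore, had a log2 fold change of −0.23 and an adjusted p of 0.057 by edgeR. CENPB, which binds a motif in alpha satellite DNA, was at 183, 175, 174 and 160 CPM, and the change of −0.10 did not pass. CENPX, a partner of CENPS, also did not pass, at −0.14. CENPS was counted 87, 73, 24 and 11 times, and its log2 fold change was −1.03 ± 0.32 (standard error, adjusted p = 0.0062, edgeR). Its exons share 65.0% of their length with the read-through gene CENPS-CORT, which had 0 counts in every library. Reads in shared exons can be assigned to neither gene, so the level of CENPS is uncertain.

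The calls of these falls varied with the libraries used. Of the 4 genes, 2 stayed called without shControl 1 (CENPI and CENPS), 1 without shControl 2 (CENPS), 1 without shYEATS2 1 (CENPK, while CENPB and CENPX became called) and 3 without shYEATS2 2 (all but CENPK, while CENPC became called), with the lone library of a group taken to vary like the others. With DESeq2 CENPI stayed called, and with library totals alone CENPS.

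In the outer kinetochore and the fibrous corona 4 of 7 genes were higher and none was lower. CENPE, the kinesin motor that carries chromosomes toward the spindle equator, was at 54.4 and 57.5 CPM in shControl and at 91.0 and 109 CPM in shYEATS2. Its log2 fold change came to 0.83 ± 0.07 (standard error). CENPF, a large corona protein, rose from 194 and 199 CPM to 297 and 333 CPM, a log2 fold change of 0.68 ± 0.06. For both genes the lower shYEATS2 library was well above the higher shControl library.

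The NDC80 complex is the main microtubule receptor of the kinetochore and has 4 subunits, NDC80 and NUF2 at the microtubule end and SPC24 and SPC25 at the chromosome end. NDC80 went from 71.5 and 77.9 CPM to 102 and 103 CPM (log2 fold change 0.46 ± 0.07, standard error), and NUF2 from 32.9 and 33.7 CPM to 43.8 and 50.6 CPM (0.49 ± 0.08). SPC25 had a log2 fold change of 0.19, with an adjusted p of 0.065 by edgeR, and passed the test with library totals alone and without shYEATS2 1. SPC24 stood at 65.4, 61.3, 66.3 and 62.7 CPM, and its log2 fold change of 0.03 lay within 2 standard errors of 0, from −0.11 to 0.17. KNL1, the scaffold on which checkpoint proteins assemble, had overlapping libraries at 65.1, 69.1, 65.2 and 69.0 CPM. Thus the subunits of the microtubule end were called higher and those of the chromosome end were not. The difference between these subunits was not tested.

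Of the 5 genes of the spindle assembly checkpoint, 4 were higher and none was lower. TTK, the kinase that starts checkpoint signalling at unattached kinetochores, rose most, from 43.7 and 46.1 CPM to 70.1 and 71.3 CPM (log2 fold change 0.65 ± 0.07, standard error). MAD2L1, which encodes the inhibitor MAD2 of the anaphase-promoting complex, was at 63.4 and 62.9 CPM in shControl and at 74.2 and 87.1 CPM in shYEATS2. Its log2 fold change was 0.34 ± 0.07.

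BUB3 and BUB1, which bind each other at kinetochores, had smaller rises. BUB3 was at 164 and 160 CPM in shControl and at 194 and 189 CPM in shYEATS2, a log2 fold change of 0.24 ± 0.06 (standard error). BUB1 went from 79.3 and 84.2 CPM to 96.7 and 90.2 CPM, a change of 0.20 ± 0.07. It lost its call without shControl 1 and without shYEATS2 1. BUB1B, which encodes the checkpoint protein BUBR1, stood at 82.8, 82.5, 83.6 and 84.8 CPM with a log2 fold change of 0.03, and 10.2% of its exonic length is shared with read-through and neighbouring genes on its strand.

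The chromosomal passenger complex corrects faulty attachments, with AURKB as its kinase, INCENP as its scaffold and BIRC5 (survivin) and CDCA8 (borealin) as the subunits that bring it to the centromere. CDCA8 was at 38.8 and 39.9 CPM in shControl and at 61.4 and 58.8 CPM in shYEATS2 (log2 fold change 0.62 ± 0.07, standard error). BIRC5 went from 135 and 137 CPM to 196 and 170 CPM (0.43 ± 0.06), and AURKB from 30.9 and 28.9 CPM to 38.9 and 40.3 CPM (0.40 ± 0.08). INCENP was the only called fall outside the centromere group, from 64.9 and 61.2 CPM to 55.9 and 51.6 CPM, with a log2 fold change of −0.22 ± 0.07 and an adjusted p of 0.0084 by edgeR. Its call was lost without shControl 1 and with library totals alone, where the log2 fold change was −0.09. The scaffold was thus lower in both shYEATS2 libraries, and the other 3 subunits were higher in both.

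**Figure D2:**
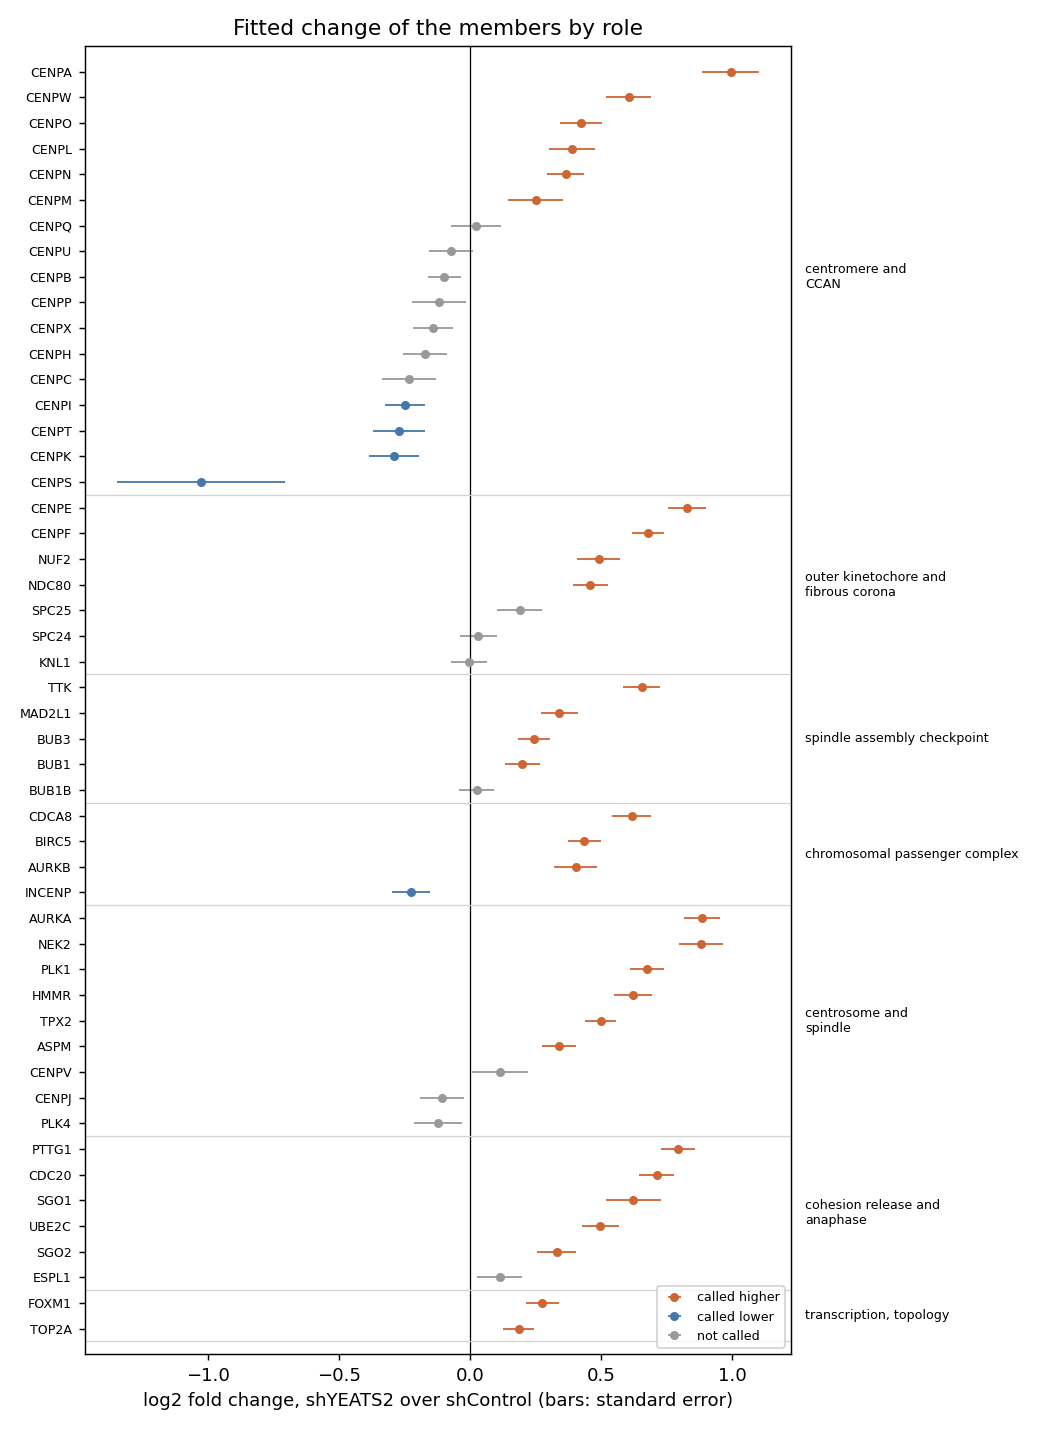
Points are fitted log2 fold changes of shYEATS2 over shControl for the 50 tested members by role, bars are standard errors, and colours give the call at an adjusted p under 0.05. Called falls (blue) number 4 in the centromere group and 1, INCENP, elsewhere, and 15 members in grey did not pass.

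Genes of the centrosome and the spindle, which include most of the mitotic kinases of this set, had 6 of 9 tested members higher and none lower. AURKA (ENSG00000087586, chromosome 20 from 56369389 to 56392337, minus strand), the kinase of centrosome maturation and spindle assembly, was at 54.3 and 57.4 CPM in shControl and at 101 and 106 CPM in shYEATS2. AURKA changed by 0.88 ± 0.07 on the log2 scale (adjusted p = 4.1e-18, edgeR). TPX2, which activates AURKA on spindle microtubules, rose from 195 and 209 CPM to 285 and 286 CPM, a log2 fold change of 0.50. For both genes the shYEATS2 libraries were close to each other and apart from the controls.

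NEK2, a kinase that separates the centrosomes, went from 25.4 and 24.1 CPM to 42.7 and 49.2 CPM (log2 fold change 0.88 ± 0.08, standard error). PLK1, which drives mitotic entry and acts at centrosomes and kinetochores, went from 89.0 and 96.0 CPM to 147 and 148 CPM (0.67 ± 0.06). HMMR, a spindle pole protein and hyaluronan receptor, was at 53.0 and 58.4 CPM in shControl and at 79.8 and 92.5 CPM in shYEATS2 (0.62 ± 0.07). ASPM, which focuses spindle poles, was higher as well, with a log2 fold change of 0.34.

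The members of centriole duplication did not follow. PLK4, the kinase that starts duplication, stood at 25.5, 27.9, 24.4 and 24.6 CPM, and CENPJ, which sets centriole length, at 35.1, 34.7, 31.5 and 33.8 CPM. Their log2 fold changes were −0.12 and −0.11, and neither passed the test. CENPV, with overlapping libraries and a log2 fold change of 0.11, did not pass either. PRC1, the bundler of the central spindle, could not be read from these counts. Exons of another gene on the same strand, ENSG00000284946, share 57.6% of its exonic length, and that gene had 160, 167, 83 and 36 counts.

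Genes of cohesion release and anaphase had 5 of 6 members higher and none lower, and the highest median of the role groups, 0.56. PTTG1 (securin), the inhibitor of separase, was at 89.3 and 91.5 CPM in shControl and at 160 and 152 CPM in shYEATS2 (log2 fold change 0.79 ± 0.06, standard error). CDC20, the activator of the anaphase-promoting complex, went from 73.7 and 73.9 CPM to 128 and 112 CPM (0.71 ± 0.07). UBE2C, the ubiquitin-conjugating enzyme of that complex, went from 54.2 and 52.0 CPM to 74.8 and 75.1 CPM (0.50 ± 0.07). Each of these 3 genes had its lower shYEATS2 library above its higher shControl library.

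The shugoshins SGO1 and SGO2 shield centromeric cohesin from early removal. SGO1 was at 12.9 and 13.4 CPM in shControl and at 21.2 and 18.8 CPM in shYEATS2, a log2 fold change of 0.62 ± 0.10 (standard error). SGO2 had a log2 fold change of 0.33. ESPL1 (separase), the protease that cuts cohesin, stood at 27.7, 26.5, 29.8 and 28.6 CPM, and its log2 fold change of 0.11 did not pass the test. Securin transcripts were thus called higher and separase transcripts were not.

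FOXM1, the transcription factor of the G2/M programme, was at 119 and 110 CPM in shControl and at 145 and 132 CPM in shYEATS2, with a log2 fold change of 0.28 ± 0.06 (standard error). Without shControl 2 it was no longer called. TOP2A, which untangles sister chromatids, was at 507 and 528 CPM in shControl and at 563 and 614 CPM in shYEATS2, a change of 0.18 ± 0.06. It lost its call without shControl 1 and without shYEATS2 2. Both genes rose less than the median of the members.

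For a rough comparison between genes, levels were divided by exonic length, which merges all annotated exons of a gene. The transcripts present in these cells may be shorter, so the order below also depends on the annotation. Per kilobase of exon, TOP2A was the most abundant member in shControl with 81.2 CPM per kb, followed by CENPB with 61.9, TPX2 with 56.1, PTTG1 with 45.8 and UBE2C with 41.3 CPM per kb. CENPA lay at 5.32 CPM per kb in shControl. The lowest members were CENPC with 2.25, CENPP with 1.97 and CENPS with 1.10 CPM per kb. Members with a higher mean CPM tended to have a higher log2 fold change (Pearson's r = 0.44, Spearman's rho = 0.36 across 50 genes). The genes share their libraries and are not independent replicates. The mean was taken over all 4 libraries, so the shYEATS2 levels enter both quantities. CENPS, whose level is uncertain, was lowest in both (1.43 CPM and −1.03). For exonic length r was −0.08.

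**Figure D3:**
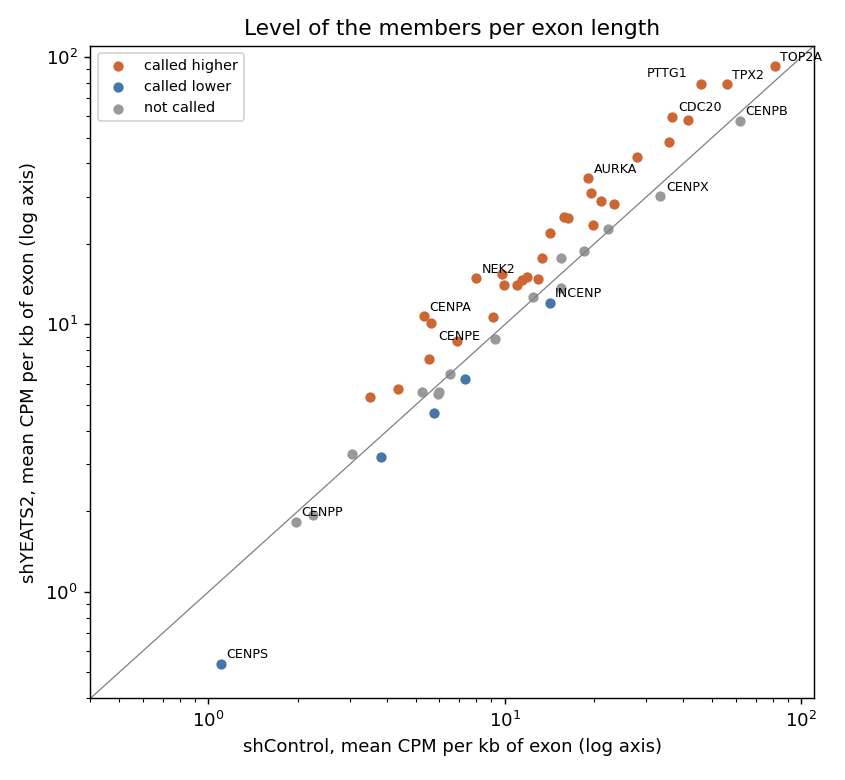
Mean level of each tested member in shControl (horizontal) against shYEATS2 (vertical), in CPM per kilobase of exon on log axes, with the line of equal levels. Members called higher (orange) lie above the line over most of the range, from 3.51 to 81.2 CPM per kb in shControl, and the 5 called lower (blue) lie at 14.2 CPM per kb or less.

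Other genes of the pathway are given by whole lists, which were drawn up with earlier results of these data known. Of these 165 tested genes, 6 stood in 2 lists. Among the other G2/M genes of a widely used single-cell cell cycle list, 23 of 37 were higher and 3 were lower. The median log2 fold change was 0.28. The shares were 62.2% and 8.11%, beside 22.6% higher and 23.6% lower among all tested genes. GAS2L3, a cytoskeletal protein of cytokinesis, rose by 1.13 on the log2 scale, from 16.6 and 19.0 CPM to 37.3 and 40.9 CPM. In the S-phase genes of the same list the direction was opposite, with 1 of 42 higher (2.38%), 31 lower (73.8%) and a median of −0.40. CCNE2, a cyclin of the G1/S transition, was at 43.1 and 44.3 CPM in shControl and at 17.9 and 19.9 CPM in shYEATS2, a log2 fold change of −1.23. With library totals alone 27 of the G2/M genes were higher, and 24 of the S-phase genes were lower.

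Their promoters differed in the same letters. Of the 33 other G2/M genes with a promoter entry 72.7% held a CHR match, and of the 31 S-phase genes 9.68%. CCAAT letters were about as frequent in both, with 66.7% and 67.7%.

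Complexes around the members were more divided. In a list of other kinetochore and checkpoint proteins, 7 of 21 were higher and 7 lower, with a median log2 fold change of −0.03. That is 33.3% in each direction, beside 22.6% higher and 23.6% lower among all tested genes. TRIP13, the enzyme that recycles MAD2, rose from 67.4 and 64.7 CPM to 108 and 105 CPM, a log2 fold change of 0.69. The list of the anaphase-promoting complex had 3 of 17 genes higher and 3 lower. It also holds the associated genes FZR1, FBXO5 and UBE2S, while CDC20 and UBE2C were counted as members. The largest called log2 fold change was that of UBE2S, the chain-elongating ubiquitin-conjugating enzyme of the complex, 0.67. In cohesin and condensin 3 of 17 were higher and 3 lower. SMC4, a condensin subunit, rose with a log2 fold change of 0.56, and PDS5B, a cohesin regulator, fell with −0.54. Neither of these lists had a larger share of called genes than all tested genes, with 17.6% higher and 17.6% lower in each.

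Among the regulators, the MuvB, B-MYB and E2F list had 6 of 20 genes higher and 7 lower. These shares were 30% and 35%, beside 22.6% and 23.6% of all tested genes. MYBL2, which encodes B-MYB itself, was at 154 and 155 CPM in shControl and at 149 and 139 CPM in shYEATS2. Its log2 fold change of −0.10 did not pass the test. MYBL1, a relative of B-MYB, rose with a log2 fold change of 0.71 (32.9 and 33.2 CPM in shControl, 54.3 and 53.5 CPM in shYEATS2). RBL1, the pocket protein p107, fell with −0.71. In the list of centriole and spindle pole proteins 6 of 17 were higher (35.3%) and 3 lower (17.6%). BORA, the activator of AURKA toward PLK1, rose with a log2 fold change of 0.62, and HAUS5, an augmin subunit, fell with −0.44.

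**Figure D4:**
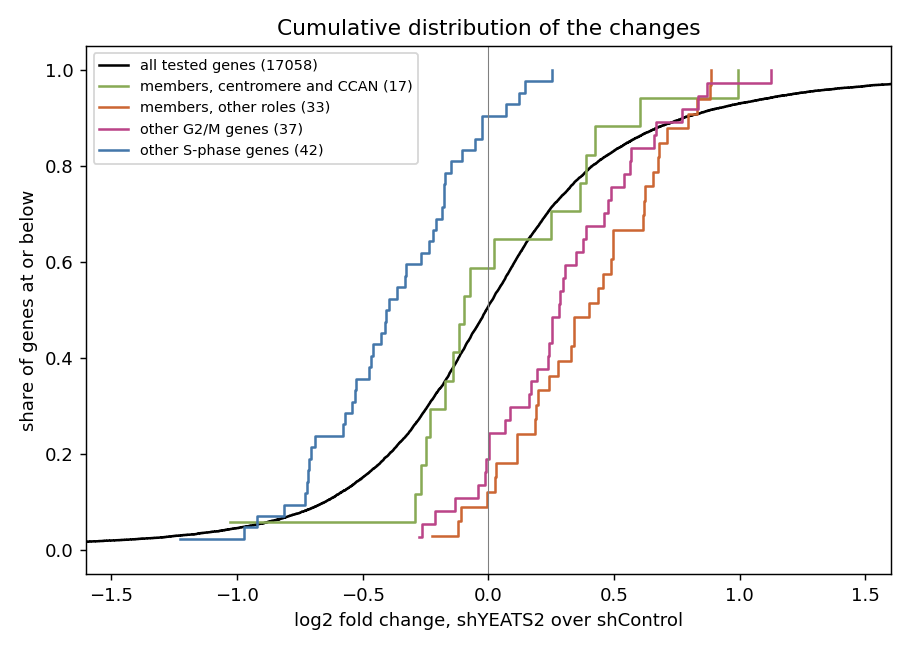
Cumulative share of genes (vertical) at or below each log2 fold change of shYEATS2 over shControl (horizontal), for all 17058 tested genes, the 17 centromere members, the 33 members of other roles, and the other G2/M (37) and S-phase (42) genes. The S-phase curve lies left of all genes over most of its range, with a median of −0.40, and the curves of the other members and of the G2/M genes lie mostly to the right, with medians of 0.40 and 0.28.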

How the data were processed

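RNA was sequenced from 2 shControl and 2 shYEATS2 libraries of BICR10 cells in paired-end runs of 150 bp. The authors used STAR to align reads to GRCh38 and HTSeq to count them, and deposited raw counts for each gene. The strand setting and annotation release are not given in the sources used here. Reads on no annotated feature made up 7.64% to 8.57% of the tally and were left out. Positions, exonic lengths and overlaps came from GENCODE release 44, promoters from RefSeq.

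After filterByExpr and TMM scaling, the robust quasi-likelihood test of edgeR 4.0.16 in R 4.3.3 (glmQLFit, glmQLFTest) was applied, with Benjamini-Hochberg adjustment over 17058 genes. Each standard error is the log2 fold change divided by the root of the F statistic. Exact permutation of 2 against 2 libraries reaches no two-sided p under 0.333, and the calls rest on variance shared across genes. Replicates differed by more than counting noise (chi-square per degree of freedom 5.95 and 5.39). The members, role groups and gene lists were chosen with earlier results of these data known. Values in every library are given for up to 4 called members per role averaging 10 CPM or more with groups that do not overlap, those with the largest changes, and for all called lower; further members are described to complete each complex and were named after their values were seen. Of each related list up to 2 genes were named by the same conditions. ITGB3BP and MYBL2 were added after their values were seen. Alternatives were other scalings and filters, DESeq2 1.42.0, limma-voom (limma 3.58.1), a replicate block, thinned counts, an adjusted p under 0.01 and each library left out.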

Additional observations from a re-analysis of the deposited data

How the results depend on the processing

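The number of members called higher was 27 to 33 over all alternatives, and no member was called in opposite directions by any of them. With library totals alone 1 member was lower and the median log2 fold change of the members was 0.44, while 2567 of all tested genes were lower. Taken relative to the median of all tested genes, the median of the members was 0.31 both with TMM and with library totals alone. With DESeq2 2 members were lower, with no filter on low counts the median was 0.25, and with thinned counts 0.28. Leaving out 1 library gave 27 to 29 members higher, 2 to 5 lower and medians of 0.26 to 0.30, with 2 lower without shControl 1 and without shControl 2. With a replicate block 29 members were higher (CENPM lost its call) and 5 lower. The labels number the libraries and do not say whether the numbers pair the samples. The difference of library 1 from library 2 in shControl and that in shYEATS2 had a correlation of −0.0184 across genes. This value cannot show whether libraries of the same number were handled together.

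Signs turned for members near 0, none of them called in either setting. With library totals alone KNL1 turned to 0.13, CENPU to 0.0622, CENPB to 0.0357, CENPP to 0.0155, CENPJ to 0.0270 and PLK4 to 0.0119. KNL1 was also at 0.0021 with DESeq2 size factors, 0.0083 with upper quartiles, 0.0033 with DESeq2, 0.0005 with the replicate block and 0.014 with thinned counts. With no filter CENPQ turned to −0.0250, SPC24 to −0.0180 and BUB1B to −0.0228. Leaving out 1 library gave −0.0139 to 0.0597 for CENPQ, −0.0246 to 0.1905 for CENPV, −0.0271 to 0.0763 for SPC24 and −0.0460 to 0.0404 for KNL1. The causes were not tested. CENPS and PRC1 had the lowest counts of the members.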
